A study of Mus musculus with 3 samples.

Results

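B lineage cells made up 255 of the 8178 cells kept in the day 7 library of mouse fracture callus (3.12%, exact 95% interval 2.75% to 3.52%). A cell was kept with 500 or more genes, at most 10% of its unique molecular identifiers (UMIs, counted transcript molecules) from mitochondrial genes and at most 5% from hemoglobin genes. Members were chosen by measured values: a kept cell was a member with at least 2 UMIs of Cd79a, at least 1 UMI of Cd79b, and S100a8 and S100a9 together below 500 per 10,000 UMIs. The members were then divided by UMIs of Vpreb1, Vpreb3 and Igll1, together called the surrogate light chain genes here. The name is a shorthand: the stand-in light chain described below is built from the Vpreb1 and Igll1 proteins, and Vpreb3 is not a part of it. Among the members, 235 had at least 1 such UMI (92.2%, 88.1% to 95.1%), 126 of them from Vpreb3 alone, and 20 had none. These values chose the cells and the split, so the levels of these genes are a description. There was 1 library per day, and cells of 1 library are not replicates of a condition, so no difference below carries a test. Every interval is exact and covers counting error only.

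B cells are made in the bone marrow in an order set by their receptor genes. A progenitor first joins the heavy chain gene with the RAG1 and RAG2 recombinase, and terminal transferase (Dntt) adds bases at the joints. The new heavy chain is carried to the surface with a stand-in light chain built from the Vpreb1 and Igll1 proteins (the pre-B cell receptor). The cell divides and then joins a kappa or lambda light chain gene. A cell that makes IgM goes on to raise its MHC class II, Ms4a1 (CD20) and IgD.

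The callus came from C57BL/6 mice at day 7, 10 or 14 after a femoral fracture, with no other treatment and no transgene named in the labels. Muscle and marrow were removed, the callus was digested with collagenase, and live cells negative for CD45, CD31 and TER119 were sorted for 10x Genomics 3′ single-cell RNA-Seq, with the aim of profiling mesenchymal cells. The age of the mice and the number pooled per library were not stated. CD45 is the protein of Ptprc, which is carried by B cells, and Ptprc UMIs were found in 215 of the 255 members. The most common cells of the day 7 library were also blood cells: 6089 of the 8178 had S100a8 and S100a9 at 500 or more per 10,000 UMIs, the neutrophil pattern. Median depth of kept day 7 cells was 6015.5 UMIs, against 18320 at day 10 and 16765 at day 14. Of the kept day 7 barcodes, 20 also occurred at day 10 and 35 at day 14, and 0 of these were members. Doublets were not removed: the caller that was run set a threshold that marked 0 of 8178 cells.

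The same rule found 0 of 7334 cells at day 10, with an exact interval up to 0.0503%, and 3 of 10813 cells at day 14 (0.0277%, 0.00572% to 0.0811%). Each of those 3 day 14 cells had UMIs of Vpreb1 (9, 11 and 4) and of Igll1 (4, 3 and 1), while Igkc, the kappa constant gene, had 1, 0 and 0 UMIs. The day was the library, so day, animals, sort and depth cannot be told apart in these shares.

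The start regions of the 3 genes that divide the cells are shown because their transcripts follow each other in part only. Vpreb1 (chr16:16868403-16870843, minus strand) and Igll1 (chr16:16860671-16863985, minus strand) are neighbors, and Vpreb3 (chr10:75943057-75949657, plus strand) lies apart from them. The sequences run from 250 bases before to 50 after the RefSeq start in GRCm38.p6, at chr16:16869206-16869505 for Vpreb1, chr16:16863936-16864235 for Igll1 and chr10:75948050-75948349 for Vpreb3. Capitals mark matches to 4 motifs searched on both strands: the E-box CAGGTG, the PU.1 core GAGGAA, the octamer ATTTGCAT and the EBF core TCCCNNGGGA.
Vpreb1: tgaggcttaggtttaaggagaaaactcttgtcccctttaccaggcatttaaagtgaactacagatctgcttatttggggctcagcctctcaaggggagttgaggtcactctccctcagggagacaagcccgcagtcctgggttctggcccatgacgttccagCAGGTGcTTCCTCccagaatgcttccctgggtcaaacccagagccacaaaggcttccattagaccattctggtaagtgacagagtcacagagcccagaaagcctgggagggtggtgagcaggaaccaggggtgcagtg
Igll1: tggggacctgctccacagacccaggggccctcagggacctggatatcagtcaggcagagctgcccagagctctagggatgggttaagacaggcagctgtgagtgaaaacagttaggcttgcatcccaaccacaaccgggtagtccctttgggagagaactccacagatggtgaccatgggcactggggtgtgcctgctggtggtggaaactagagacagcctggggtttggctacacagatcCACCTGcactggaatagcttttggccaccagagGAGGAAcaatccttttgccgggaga
Vpreb3: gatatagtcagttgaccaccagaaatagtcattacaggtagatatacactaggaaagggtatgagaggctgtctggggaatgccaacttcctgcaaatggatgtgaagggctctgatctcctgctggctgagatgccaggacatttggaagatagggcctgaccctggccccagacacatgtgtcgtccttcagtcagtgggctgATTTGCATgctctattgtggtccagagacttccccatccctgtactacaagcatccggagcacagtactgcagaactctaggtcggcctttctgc

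The Vpreb1 window held the E-box at position -88 and the PU.1 core, on the other strand, at -81, counted from the RefSeq start. The GENCODE genes given above for Vpreb1 and Vpreb3 begin further upstream than this start, and for Igll1 both begin at the same base, so the positions hold for the RefSeq starts. The Igll1 window held the same pair, with the E-box at -8 on the other strand and the PU.1 core at 25. The Vpreb3 window held neither and had the octamer at -45. Of 32851 windows of this length, 20.2% held the E-box, 28.3% the PU.1 core, 1.74% the octamer and 0.904% the EBF core, which was in none of these 3 windows. A match is a description of letters, not a site.

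The label was checked against genes the rule did not use. Ighm, the mu heavy chain constant gene, was present in 251 of 255 members and Ebf1, the factor that sets the B lineage program, in 247. Pax5, which keeps cells in the B lineage, was present in 226 members. Of the 1834 other kept cells with S100a8 and S100a9 below the limit of the rule, 845 had Ighm UMIs and 441 had Ebf1 UMIs. The median depth of these 1834 cells was 30275.5 UMIs. Presence of Ighm or Ebf1 alone thus does not set the members apart from them. The levels that follow are set against the S100a8/S100a9-rich cells only. Levels are given in CPM (UMIs scaled to a total of 1e6), with the UMIs of a group's cells summed. In the members Ebf1 stood at 1515 CPM (1476 to 1554), against 10.5 CPM (9.67 to 11.5) in the cells rich in S100a8 and S100a9, where its 524 UMIs lay in 78 of 6089 cells. Ighm stood at 2143 CPM (2097 to 2190) against 87.6 CPM (85.0 to 90.2). Among 11412 genes with at least 50 UMIs, 24.3% were at least 2-fold higher in the members than in the S100a8/S100a9-rich cells and 10.6% at least 2-fold lower, on the scale log2((CPM + 10)/(CPM + 10)). Of 17 pan-B genes, 15 were at least 2-fold higher and 0 lower, with a median log2 of 3.85 beside 0.33 for all genes. After the genes of the rule and Igkc, Igha and Jchain, the genes furthest above the S100a8/S100a9-rich cells were Ebf1 (6.21), Chchd10 (5.93), Ly6d (5.28) and Mzb1 (5.20).

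Few cells lay near the limits of the rule. Cd79a stood at 2 UMIs in 1 member and at 3 in 1, and Cd79b at 1 UMI in 4. Outside, 6 cells had 1 UMI of Cd79a with Cd79b present, and 3 of them had surrogate light chain UMIs. A further 505 cells had Cd79b but no Cd79a UMI. Their median depth was 42670 UMIs. Ighm UMIs were found in 370 of them, surrogate light chain UMIs in 67 and Ebf1 UMIs in 17. On the limit for S100a8 and S100a9, 17 cells with both Cd79 genes stood above 500, between 654 and 2707 per 10,000, and 16 of these had surrogate light chain UMIs. Inside it, 7 members stood between 110 and 383 and the other 248 below 100. The study named an upper limit of 5000 genes per cell that the rule lacks: 47 members had more.

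The surrogate light chain genes divided the members in 3 ways rather than 2. Vpreb3 was present in 235 of the 235 cells with any surrogate light chain UMI, so it alone decided the split of the rule. Vpreb1 was present in 105 cells and Igll1 in 108, and 104 had both. One group, 109 cells, thus had Vpreb1 or Igll1, with a median of 49 UMIs of these genes per cell (1 to 142): 96 had 10 or more and 4 had 1 or 2. The next, 126 cells, had Vpreb3 alone and the last, 20 cells, none. Vpreb2 was found in 82 members, and its longest transcript was 97.5% identical to that of Vpreb1 over 686 aligned bases, so reads of these copies may be split or lost. This 3-way division, and each finer one below, was chosen after the values were seen.

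Depth differed strongly between these groups. Median UMIs per cell were 23400 with Vpreb1 or Igll1, 3863 with Vpreb3 alone and 4529.5 with none. With each cell thinned to 1000 UMIs, the median numbers of genes were 620, 625 and 594.5, against 458 in the S100a8/S100a9-rich cells. Thinning lowered the share of members with a surrogate light chain UMI to 79.6%, so the split of the rule depends on depth. In bulk sums a group's level also weights its deepest cells, and shares of cells are therefore also given at 1000 UMIs for single genes.

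A set of 10 members, put apart after their values were seen, had high levels of genes of other cells or of antibody secretion. In 4 of these 10 members Jchain, which joins IgA and IgM units, stood at 1332 to 2469 UMIs, Igha at 2766 to 7943 and Igkc at 8401 to 14324, while Ighm was at 0. Igkc took 40.8% to 49.8% of their UMIs. Of these 4, 3 had Vpreb3 UMIs and 1 had none. Another 2, in the Vpreb1/Igll1 group, had 3632 and 1459 Col1a1 UMIs, a collagen gene of bone-forming cells, and were among the deepest members (77988 and 87023 UMIs). A pair of Vpreb3-alone cells had 193 and 214 Mpo UMIs, a gene of neutrophil precursors. In the group with none, 1 cell of 87309 UMIs had 505 Car1 UMIs, an erythroid gene, and 1 had 16 Siglech UMIs, a gene of plasmacytoid dendritic cells, with 5 of Cd79a and 1 of Cd79b. Of these 10 cells, 1 was among the kept cells with the top 5% of doublet scores, as were 5 of all 255 members. Whether the 10 are doublets was not tested further.

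The split of the rule was compared first with all members. Of 6997 genes with at least 50 UMIs, 910 (13.0%) were at least 2-fold higher in the 235 cells with surrogate light chain UMIs and 213 (3.04%) at least 2-fold lower. Recombination genes lay on the higher side, 7 higher and 0 lower of 11 tested, with a median log2 of 1.91 beside 0.20 for all genes. So did the early progenitor and pro-B genes, 10 higher of 10 (median 2.53). The 235 cells held 3652169 UMIs and the 20 held 201498, so a gene low in the 20 passed the limit of 50 UMIs mainly through the 235. MHC class II genes lay on the lower side, 10 of 10 (median -2.34), as did 13 of 20 maturing B cell genes (median -1.51). The list of plasma cell genes summed to 2151 CPM in the 235 cells and 12824 CPM in the 20, a log2 ratio of -2.58, while the median over its 5 tested genes was 0.28.

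Single cells decided many of these values. One member held 43.3% of the UMIs of the group with none. Without the 10 members set apart, 228 cells against 17, 1636 genes were at least 2-fold higher (24.8% of 6610 tested) and 649 at least 2-fold lower (9.82%). The plasma cell list then turned to a log2 ratio of 0.90 (0.35 to 1.52). Ibsp and Col1a1, bone matrix genes at log2 6.77 and 5.36 in the whole set, turned to -0.19 and -0.68, and Car1, which had 505 UMIs in 1 cell, turned from -7.94 to 0.04. Igha turned from -3.43 to 0.31. Class II went to 9 lower of 9 (median -3.65), the maturing genes to 19 lower of 20 (median -2.71), the recombination genes to 7 higher of 11 (median 2.26) and the early genes to 8 higher of 10 (median 2.57). All comparisons from here on leave the 10 cells out, which gives 107 cells with Vpreb1 or Igll1, 121 with Vpreb3 alone and 17 with none.

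Conventional light chain was far lower in the cells with Vpreb1 or Igll1 than in those with Vpreb3 alone. Igkc (chr6:70726435-70726966, plus strand) stood at 207 CPM (190 to 224) in the 107 cells, at 7579 CPM (7356 to 7807) in the 121 and at 8921 CPM (8256 to 9625) in the 17, with 16.4 CPM in the S100a8/S100a9-rich cells. At 1000 UMIs per cell, Igkc was found in 19.6% (12.6% to 28.4%) of the 107, 85.1% (77.5% to 90.9%) of the 121 and 94.1% (71.3% to 99.9%) of the 17. Of the lambda constant genes, Iglc1 had 0 UMIs in the 107 cells, which allows up to 1.09 CPM, and 1582 CPM in the 121. Iglc2 and Iglc3 stood at 0.363 and 2.54 CPM against 1144 and 921 CPM. Iglc2 and Iglc3 are near copies, so their split is uncertain.

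Cell by cell, the 4 light chain genes together had a median of 0.595 per 10,000 UMIs in the 107 cells (0 to 80.6), 116 in the 121 (1.49 to 639) and 134 in the 17 (64.9 to 245). The ranges overlapped: 5 of 107 cells reached 20 per 10,000, against 105 of 121 and 17 of 17, and 87 of 107 lay below 5, against 3 and 0. Over all 245 cells the rank correlation of Vpreb1 plus Igll1 with light chain was -0.84, and within the 107 it was -0.56. Vpreb1 plus Igll1 was 0 by the division in all of the 121 and the 17 cells, so the value over 245 cells in large part restates the groups. These are descriptions over cells of 1 library, and both genes and light chain share each cell's depth. Of cells with 10 or more light chain UMIs, kappa exceeded lambda 10-fold in 20 of 21, 41 of 108 and 1 of 17, and lambda exceeded kappa in 0, 17 and 3.

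**Figure D1:**
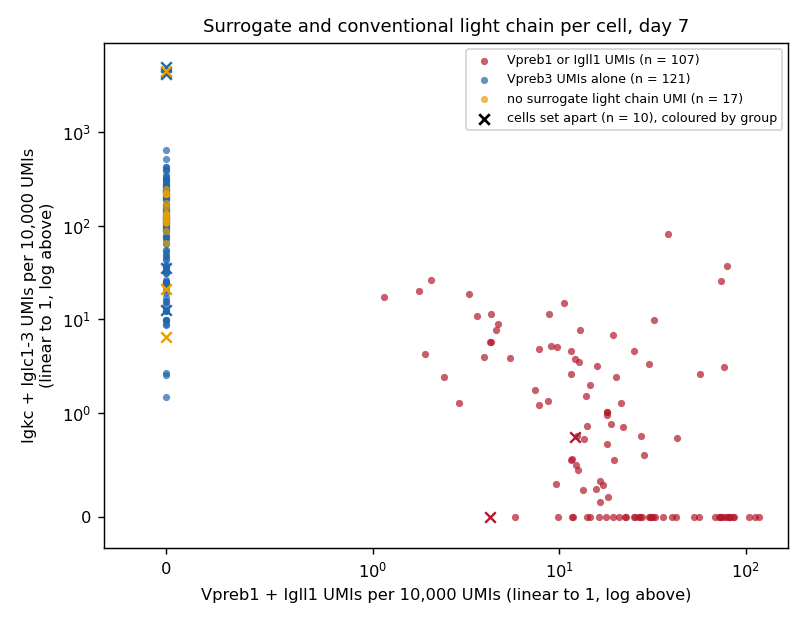
Vpreb1 plus Igll1 (x) and conventional light chain (y) in UMIs per 10,000 UMIs of the cell, 1 point per day 7 B lineage cell, colored by group, with crosses for the 10 cells set apart; both axes are linear to 1 and logarithmic above. The median on the y axis is 0.595 in the 107 cells with Vpreb1 or Igll1 and 116 in the 121 with Vpreb3 alone, with overlapping ranges.

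Across the genome, 609 of 6523 genes tested (9.34%) were at least 2-fold higher in the 107 cells than in the 121, and 698 (10.7%) at least 2-fold lower. After Vpreb1 and Igll1, genes of the split, came Vpreb2 at log2 3.82. Nrgn was next at log2 3.34, with UMIs in 67 of 107 cells and 6 of 121 (17.8% and 0% at 1000 UMIs). MHC class II was lower in 9 of 9 genes tested (median log2 -3.56, beside -0.02 for all genes). Cd74, the invariant chain that escorts class II, stood at 19.6 CPM (14.7 to 25.6) in the 107, 4167 CPM (4002 to 4337) in the 121 and 11600 CPM in the 17. H2-Aa, a class II chain, went from 10.5 to 1066 to 3724 CPM. Maturing B cell genes were lower in 17 of 19, with a median of -2.96. Among these, Ms4a1 stood at 7.26 CPM against 824 CPM, and Fcmr, the Fc receptor for IgM, at 0.363 CPM against 325 CPM. Klf2, a factor that restrains division and guides exit from tissue, stood at 38.5 CPM against 765 CPM.

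With cycling cells included, genes of the B lineage itself were also lower in the 107 cells. Pan-B genes were at least 2-fold lower in 12 of 17 and higher in 0, with a median log2 of -1.51, and Ighm (chr12:113418558-113422730, minus strand) stood at 1626 CPM (1579 to 1674) against 5686 CPM (5493 to 5884) in the Vpreb3-alone cells and 4742 CPM in the 17. Genes of receptor signaling were lower in 8 of 16 (median -0.999): Syk, a kinase that acts below the receptor, stood at 123 CPM against 654 CPM. Of 22 transcription factors of the lineage, 3 were higher and 8 lower, with a median of -0.84. Over all genes in this comparison 9.34% were higher and 10.7% lower, with a median of -0.02, so the 3 higher factors are near the share of all genes. Spib stood at 53.4 against 591 CPM and Ikzf3 at 43.2 against 278 CPM, while Lef1, an early factor, went the other way at 228 against 46.9 CPM. Cd24a stood at 1476 CPM against 772 CPM, within 2-fold on the log2 scale used.

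Cell cycle genes separated the groups. S phase genes were at least 2-fold higher in 23 of 29 and lower in 0 (median log2 1.37). G2/M phase genes were higher in 11 of 34 (median 0.81), and replication-dependent histones in 1 of 10, near the 9.34% of all genes that were higher. S and G2/M genes together had a median of 122 per 10,000 UMIs in the 107 cells, 10.4 in the 121 and 11.1 in the 17. Counting a cell as high at 50 or more per 10,000, 86 of 107 (80.4%, 71.6% to 87.4%), 14 of 121 (11.6%, 6.47% to 18.7%) and 1 of 17 cells were high. Between 20 and 50 there were 3, 10 and 2 cells. Few cells thus lay in the range below 50 among the 107, while in the 121 and the 17 the number of high cells depends more on that value. At 1000 UMIs per cell, the marker of dividing cells Mki67 was found in 41.1% (31.7% to 51.0%) of the 107, 9.09% of the 121 and 5.88% of the 17, beside 8.08% of the S100a8/S100a9-rich cells. Deeper cells had higher cycle levels over the 245 cells (rank correlation 0.70) and within the 107 (0.37). The part of depth in the cycle level was not tested beyond the thinning.

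**Figure D2:**
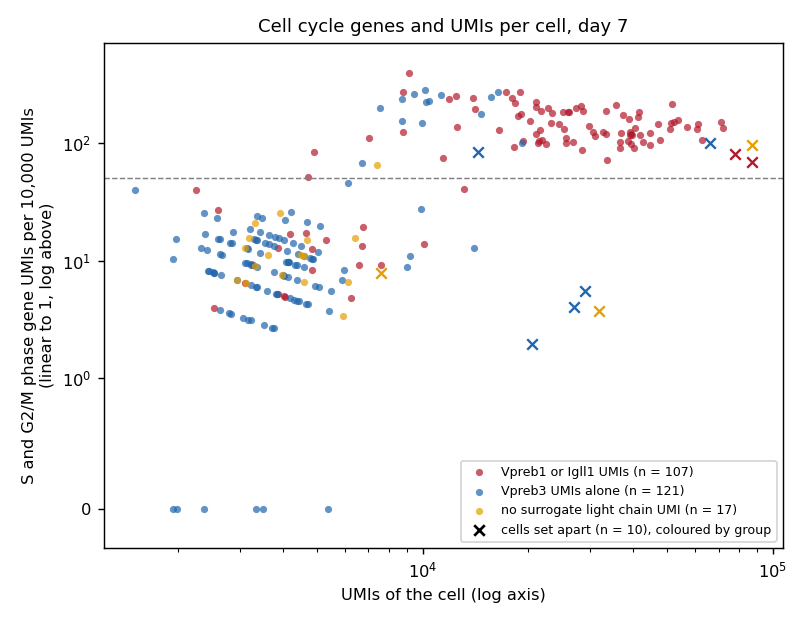
S and G2/M phase gene UMIs per 10,000 UMIs (y, linear to 1 and logarithmic above) against the UMIs of the cell (x, logarithmic), 1 point per day 7 B lineage cell, colored by group, with crosses for the 10 cells set apart and a dashed line at 50. Of the 107 cells with Vpreb1 or Igll1, 86 lie on or above the line, with a median of 27901 UMIs, and 107 of the 121 Vpreb3-alone cells lie below it.

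The light chain and class II differences were also present between cells with low cycle genes. Here 21 cells with Vpreb1 or Igll1 were set against 107 with Vpreb3 alone, and their median depths were 4637 and 3604 UMIs. Of 1774 genes tested, 83 (4.68%) were at least 2-fold higher and 182 (10.3%) at least 2-fold lower. Light chain genes were lower in 4 of 4 (median log2 -5.88), class II in 6 of 8 (median -3.55) and the maturing genes in 13 of 16 (median -1.95), with all genes at a median of 0.00. Cd74 had 0 UMIs in the 21 cells, which allows up to 27.2 CPM, and 5526 CPM in the 107. Early progenitor and pro-B genes were higher in 2 of 7 and lower in 1, and their sum was 5521 CPM against 2337 CPM. With cycling cells included this order was turned: 4 of 10 were higher and 2 lower, and the sum was 1802 CPM against 2428 CPM. Ebf1 stood at 5720 CPM (5283 to 6184) against 3095 CPM (2928 to 3268), opposite to its order with cycling cells included, 1460 against 2792 CPM. Pan-B genes were lower in 8 of 17 (median -0.79). Transcription factors were higher in 1 of 20 and lower in 4 (median -0.45), while their sum was larger, 13404 against 11597 CPM.

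Of the recombinase genes, Rag1 (chr2:101638282-101649501, minus strand) or Rag2 had a UMI in 52 of 107 cells with Vpreb1 or Igll1 and in 44 of 121 with Vpreb3 alone, and in 0 of the 17 cells with none. At 1000 UMIs Rag1 was found in 14.0%, 16.5% and 0% of these cells. The recombination list as a whole had 2 genes at least 2-fold higher and 3 lower of 11 in the 107 against the 121. Over all genes 9.34% were higher and 10.7% lower. The list had a median log2 of -0.40 but a larger sum, 9183 against 5441 CPM. Rag1 was a small part of these sums, and the list also summed to 3630 CPM in the S100a8/S100a9-rich cells. Rag1 stood at 55.5 CPM (47.1 to 65.1), 176 CPM (143 to 213) and 0 CPM, and 0 UMIs in the 17 cells allows up to 40.2 CPM. The order of the first pair turned with cycling: Rag1 stood at 615 CPM (478 to 780) in the 21 Vpreb1/Igll1 cells with low cycle genes, 32.1 CPM (25.7 to 39.7) in the 86 with high, and 200 CPM (159 to 247) in Vpreb3-alone cells with low. At 1000 UMIs per cell the shares with Rag1 were 38.1% of 21 cells (18.1% to 61.6%), 8.14% of 86 (3.34% to 16.1%) and 17.8% of 107 (11.0% to 26.3%). Rag1 or Rag2 was thus present in 19 of the 21 Vpreb1/Igll1 cells with low cycle genes and 33 of the 86 with high.

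Dntt (chr19:41029275-41059525, plus strand) was nearly limited to cells with Vpreb1 or Igll1: 37 of these 107 had a UMI, 1 of 121 and 0 of 17. At 1000 UMIs the shares were 19.6%, 0.826% and 0%. The 37 cells had a median depth of 13131 UMIs and the other 70 of 31900.5. Of the 37, 32 also had Rag1 or Rag2, against 20 of the 70, and at 1000 UMIs Rag1 was found in 32.4% and 4.29%. Cycle genes were high in 21 of 37 (56.8%, 39.5% to 72.9%) and 65 of 70 (92.9%, 84.1% to 97.6%). At 1000 UMIs per cell Mki67 was found in 21.6% and 51.4%.

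Between the cells with and without Dntt in the Vpreb1/Igll1 group, 253 of 5763 genes (4.39%) were at least 2-fold higher with Dntt and 85 (1.47%) at least 2-fold lower. Early progenitor and pro-B genes were higher in 5 of 10 (median log2 1.07, beside 0.03 for all genes), with Dntt among the 5. Maturing B cell genes were also higher with Dntt, in 6 of 11 and lower in 0 (median 1.20), and class II genes in 1 of 3 (median 0.56). Erg, a factor of stem and progenitor cells, stood at 173 CPM against 2.72 CPM. Lef1 at 1000 UMIs was found in 43.2% (27.1% to 60.5%) of the 37 and 12.9% (6.05% to 23.0%) of the 70. Vpreb1 stood at 2162 against 692 CPM and Igll1 at 1621 against 720 CPM. On the lower side with Dntt were Igkc (23.7 against 252 CPM), Nrgn (104 against 420 CPM), Cd22, a brake on receptor signaling (12.7 against 72.6 CPM), and Ikzf3 (3.64 against 53.1 CPM). Ptprc was found at 1000 UMIs in 8.11% (1.70% to 21.9%) of the 37 and 24.3% (14.8% to 36.0%) of the 70.

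The Vpreb3-alone cells were not uniform either. MHC class II genes had a median of 11.5 per 10,000 UMIs among the 121, and 54 stood at 20 or more against 67 below. In the 107 cells with Vpreb1 or Igll1, 3 stood at 20 or more, and in the 17 with none, 16 did. Class II made this division, so its own levels are a description. Median depths of the 54 and 67 were close, 3805 and 3771 UMIs. Vpreb3 was itself lower with high class II, at 1755 CPM (1587 to 1935) against 4317 CPM (4102 to 4542), and the rank correlation of Vpreb3 with class II over the 121 cells was -0.68. Within the 107 cells with Vpreb1 or Igll1 that correlation was 0.42, and over all 245 cells it was -0.30.

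**Figure D3:**
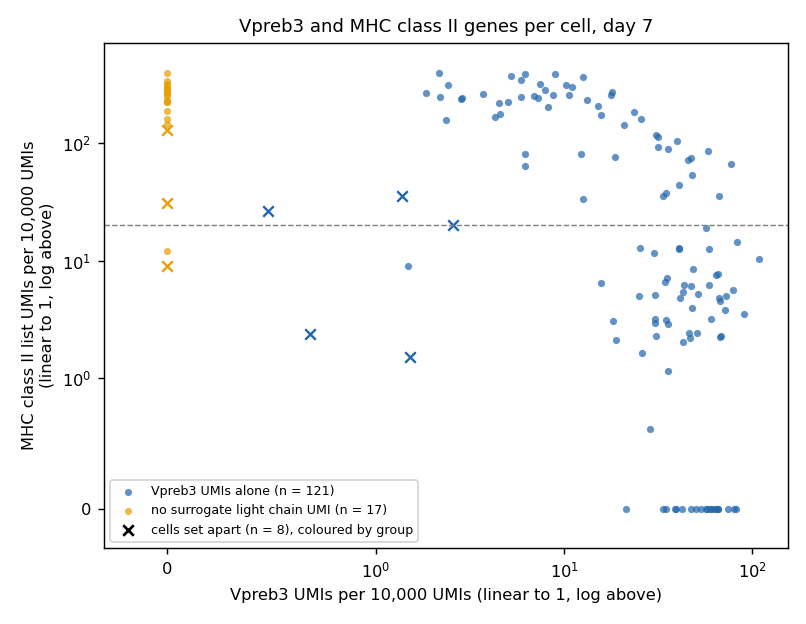
Vpreb3 UMIs (x) and MHC class II gene UMIs (y), both per 10,000 UMIs of the cell and on axes linear to 1 and logarithmic above, 1 point per cell with Vpreb3 alone or with no surrogate light chain UMI, with crosses for cells set apart and a dashed line at 20. Of the 121 Vpreb3-alone cells, 54 lie on or above the line, and 16 of the 17 cells with none do.

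Of 1922 genes tested between the 54 and the 67 cells, 126 (6.56%) were at least 2-fold higher with high class II and 221 (11.5%) at least 2-fold lower. Light chain genes were higher in 4 of 4 (median log2 1.77, beside -0.16 for all genes) and maturing genes in 8 of 15 (median 2.11). Ms4a1 stood at 1855 CPM (1683 to 2041) against 144 CPM (107 to 190), Ltb, a signal for lymphoid tissue, at 858 against 20.2 CPM, and Ighd at 858 against 136 CPM. Recombination genes were lower in 4 of 5 (median -1.98) and early genes in 5 of 5 (median -2.49). Il7r, the receptor for the growth factor IL-7, stood at 109 CPM (70.8 to 161) against 695 CPM (610 to 789), and Rag1 at 56.9 against 254 CPM. G2/M genes were lower in 18 of 18 and histones in 10 of 10, and 1 of 54 against 13 of 67 cells had high cycle genes.

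The cells with low class II also differed from the Vpreb1/Igll1 cells in genes outside the light chain. At 1000 UMIs, Spib was found in 47.8% of these 67 cells, 14.3% of the 70 Vpreb1/Igll1 cells without Dntt and 2.70% of the 37 with it. Syk was found in 55.2%, 17.1% and 2.70%. Il2ra (CD25), named after its values were seen, was found in 34 of the 67 cells, 3 of the 54 with high class II and 8 of the 107, or 16.4%, 1.85% and 0.935% at 1000 UMIs. Irf4, a factor that promotes light chain joining, stood at 236 CPM in the 67 and 26.3 CPM in the 54, against 81.3 CPM in the 107.

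**Figure D4:**
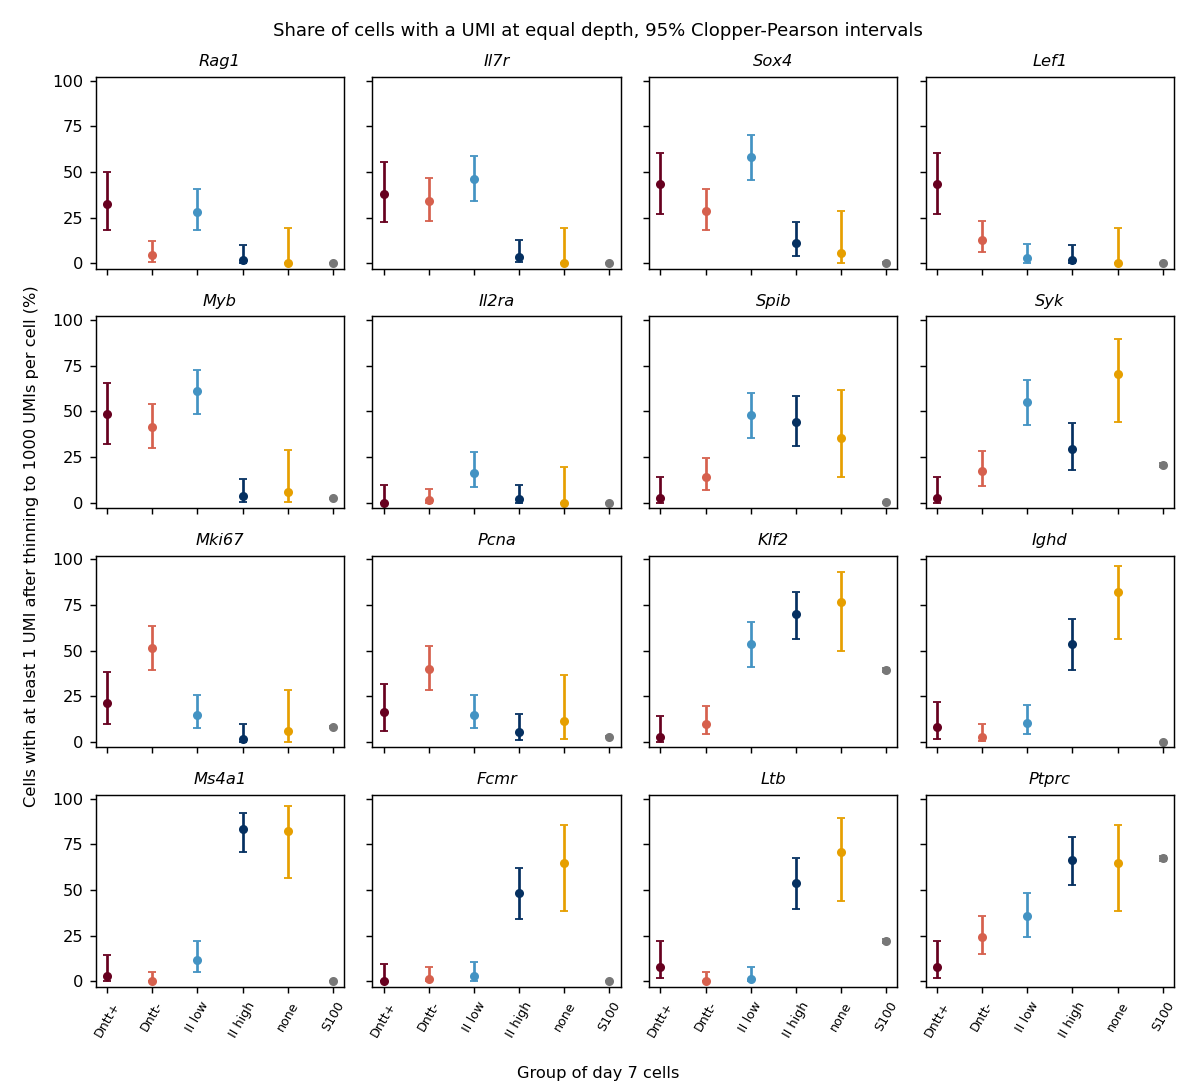
Share of cells (y, percent) with a UMI of each of 16 genes after thinning to 1000 UMIs per cell, with 95% Clopper-Pearson intervals, in Vpreb1/Igll1 cells with (37) and without (70) Dntt UMIs, Vpreb3-alone cells with low (67) and high (54) class II, cells with none (17) and S100a8/S100a9-rich cells. Rag1, Il7r, Sox4 and Myb lie between 28.4% and 61.2% in Vpreb3-alone cells with low class II and between 1.85% and 11.1% with high class II, where Ms4a1 reaches 83.3%.

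The 17 cells without surrogate light chain UMIs were set against the Vpreb3-alone cells. Of 2169 genes tested, 326 (15.0%) were at least 2-fold higher in the 121 Vpreb3-alone cells than in the 17 and 66 (3.04%) at least 2-fold lower. Class II was lower in 9 of 9 (median log2 -1.61, beside 0.16 for all genes) and the maturing genes in 11 of 19 (median -1.16). Light chain was at least 2-fold lower in 1 of 4 and higher in 1, with sums of 11226 and 14439 CPM. Early genes were higher in 5 of 5 (median 3.17) and G2/M genes in 16 of 18 (median 3.21). The 121 cells held 575266 UMIs and the 17 held 74658. A gene low in the 17 was thus tested mainly through its UMIs in the 121, and these 2 counts are a description. The G2/M value rested on the 14 cells with high cycle genes: the 107 Vpreb3-alone cells with low cycle genes summed to 474 CPM of G2/M genes and the 17 cells to 670 CPM. Il7r had 266 UMIs in the 121 cells and 0 in the 17, which allows up to 40.2 CPM there. Ighd was present in 17 of 17 cells at 1447 CPM (1187 to 1747), against 422 CPM (371 to 479) in the 121. At 1000 UMIs Ms4a1 was found in 82.4% (56.6% to 96.2%) of the 17 and 83.3% (70.7% to 92.1%) of the 54 with high class II. Ighd was found in 82.4% (56.6% to 96.2%) and 53.7% (39.6% to 67.4%), with intervals that overlap.

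**Figure D5:**
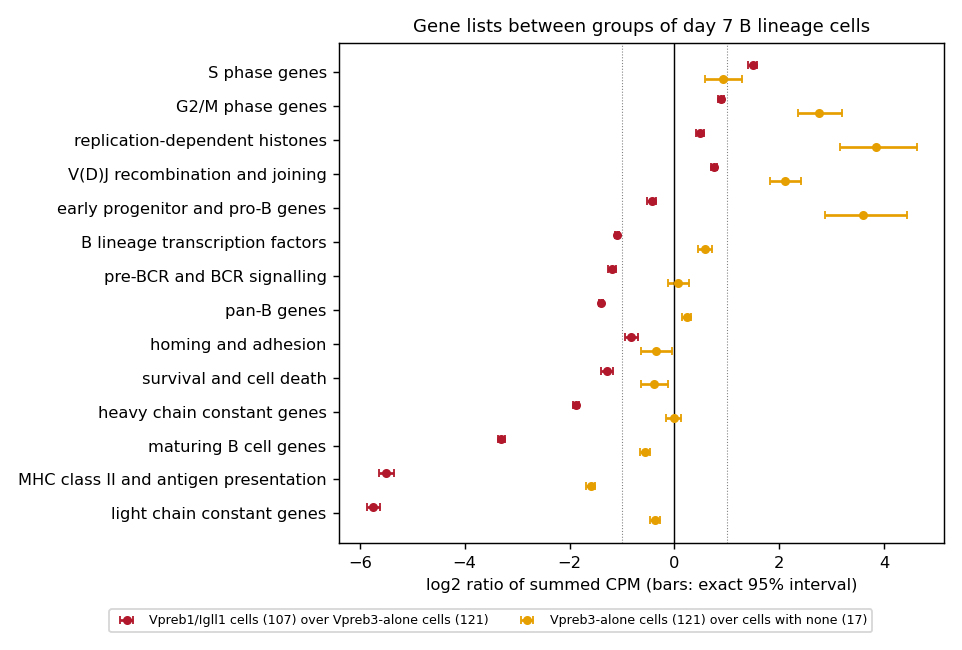
Log2 ratio of the summed CPM of 14 gene lists (x, with exact 95% intervals for counting error) for the 107 Vpreb1/Igll1 cells over the 121 Vpreb3-alone cells and for these 121 over the 17 cells with none; dotted lines mark 2-fold. Light chain and MHC class II lie near -5.74 and -5.49 in the first comparison, while early genes and histones lie at 3.60 and 3.84 in the second. The histone genes Hist1h2ap, Hist1h1b and Hist1h2ae had UMIs in only 19, 30 and 30 of the 121 cells.

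Survival and cell death genes were at least 2-fold lower in 6 of 11 in the 107 cells against the 121 (median log2 -1.17), beside 10.7% of all genes. Between cells with low cycle genes 2 of 6 were lower (median -0.47), beside 10.3% of all genes in that comparison. Bcl2, which holds off cell death, stood at 8.35, 59.1 and 268 CPM in the 107, the 121 and the 17. Tnfrsf13c, the receptor for the survival factor BAFF, stood at 31.9, 355 and 375 CPM. Of 9 homing genes, 3 were lower in the 107 and 0 higher (median -0.77), and 1 of 5 between cells with low cycle genes. Cxcr4, which holds B cell precursors near marrow stroma, stood at 84.6, 198 and 107 CPM, and at 1000 UMIs was found in 8.41%, 13.2% and 0% of cells, beside 17.3% of the S100a8/S100a9-rich cells.

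Ptprc, the gene of the CD45 antigen used in the sort, followed the groups. It stood at 115 CPM (103 to 129) in the 107 cells, 584 CPM (523 to 650) in the 121 and 1072 CPM (850 to 1334) in the 17. At 1000 UMIs it was found in 18.7% (11.8% to 27.4%), 49.6% (40.4% to 58.8%) and 64.7% (38.3% to 85.8%), beside 67.4% of the S100a8/S100a9-rich cells. Pecam1, the gene of CD31, stood at 45.4, 160 and 121 CPM. How the sort acted on the shares of these groups was not tested.

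Markers of other cell types were summed over the 245 cells. Neutrophil genes stood at 3635, 3614 and 3523 CPM in the 107, the 121 and the 17, a sum that includes S100a8 and S100a9, which the rule limits. T and NK cell genes summed to 56.6, 17.4 and 40.2 CPM, with Cd3e, Cd4 and Cd8a at 0 in each. Mesenchymal genes summed to 148, 375 and 402 CPM, monocyte and macrophage genes to 201, 344 and 107 CPM, and erythroid genes to 258, 634 and 469 CPM. Endothelial genes, with Pecam1 among them, summed to 46.5, 160 and 121 CPM. Dendritic cell genes summed to 11.6, 43.5 and 0 CPM, and mast cell and basophil genes to 2.54, 12.2 and 0 CPM. Plasma cell genes summed to 641, 699 and 348 CPM, with Jchain at 0 in the 107 and the 121 and at 1 UMI in the 17.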

How the data were processed

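The deposited data were gene by cell UMI count matrices made by the authors with Cell Ranger (version 3.0 in the submitters' processing notes, 3.1.0 in the matrix headers) on mm10, 1 for each of 3 libraries. Kit versions differed between sources and are not given. Cells were chosen by the rule stated in the report. The members, the 25 gene lists and the divisions were chosen with earlier results of these data known. The authors' counts were summed over the cells of a group and scaled to CPM. A gene counted as at least 2-fold changed by log2((CPM + 10)/(CPM + 10)), among genes with at least 50 UMIs in both groups together. A gene could pass this limit through 1 group alone, more easily the group with more UMIs. Intervals were exact (Poisson for levels, Clopper-Pearson for shares, conditional binomial for ratios), at 95%. A count of 0 allowed up to 3 counts. Thinning drew 1000 UMIs per cell without replacement and left out 16 S100a8/S100a9-rich cells. Named genes were those of the lists and of the rule, and the 12 furthest in each direction between cells with and without surrogate light chain UMIs and above the S100a8/S100a9-rich cells. Genes named outside this (Il2ra) were chosen after their values were seen. No p-value was computed. Scripts were tested on simulated data, with Python 3.11.15, scipy 1.17.1 and scanpy 1.11.5. Gene positions follow GENCODE for GRCm38, and promoter sequences RefSeq, where 6 of 6 genes asked matched.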

Additional observations from a re-analysis of the deposited data

How the results depend on the processing

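No paired analysis was possible because each day had 1 library and no result comes from a test. The share of members with surrogate light chain UMIs (92.2%) was 42.7% when Vpreb3 was not counted, 79.6% with cells thinned to 1000 UMIs and 86.8% at 2000. Between these cells and those without, 910 genes were higher and 213 lower. These counts were 1636 and 649 without the 10 members set apart, 1939 and 363 without the deepest member, 446 and 480 when the split used Vpreb1 and Igll1 alone, 123 and 24 at 1000 UMIs, 275 and 52 at 2000 UMIs, 392 and 56 with at least 200 UMIs per gene, 1411 and 359 with a pseudocount of 1 CPM and 181 and 71 with 50 CPM. The higher count was 591 with Cd79a at 1 UMI or more and 1400 from means over cells, and the lower count 353 at 20 UMIs per gene and 486 at 1. Thinning leaves fewer genes to test, and the other causes were not tested. The lists at least 2-fold lower went from 9 to 5 at 1000 UMIs. Directions turned for plasma cell genes (0.90), Igha (0.31), Car1 (0.043), Ibsp (-0.19) and Col1a1 (-0.68) without the 10 members, for Car1 (0.039) without the deepest member, for Ibsp at 1000 (-1.69) and 2000 UMIs (-2.28), for Col1a1 at 2000 UMIs (-1.19) and at most 5000 genes per cell (-0.0013), and for Rag1 (-0.92), Il7r (-0.056) and Sox4 (-0.61) when the split used Vpreb1 and Igll1 alone. For Vpreb1/Igll1 against Vpreb3-alone cells the counts of 609 and 698 were 91 and 97 at 1000 UMIs, and 284 and 388 at most 5000 genes per cell. For Vpreb3-alone cells against those with none, 326 and 66 were 59 and 14 at 1000 UMIs, and the lower count was 101 with all members. With against without Dntt, the lower count of 85 was 145 from means over cells and the higher count of 253 was 107 at most 5000 genes per cell. Of the counts and shares of cells and genes, 91 values under other settings stayed within 1.5 times or the interval of the value reported and 33 did not. Of the values of lists, 100 stayed, 123 moved by more than this and 1 turned. Of the values of single genes, 259 stayed, 166 moved and 12 turned. The settings that leave out the 10 members, the deepest member or the 5% of cells with the highest Scrublet scores, and those on the finer groups, were added after the data were seen. The planned doublet alternative gave no value, since the caller marked 0 cells.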
